A study of Mus musculus with 13 samples.

Results

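The let-7 and miR-98 family was followed across B78H1 flank tumors of mice on a curcumin diet or a normal diet. Its 9 measured members were the 5p arms mmu-let-7a-5p, mmu-let-7b-5p, mmu-let-7c-5p, mmu-let-7d-5p, mmu-let-7e-5p, mmu-let-7f-5p, mmu-let-7g-5p, mmu-let-7i-5p and mmu-miR-98-5p (without the mouse prefix mmu below), taken by name from the 1079 mouse miRNAs of the array. The B78H1 line comes from the mouse melanoma B16, makes no pigment and lacks Tap-2 and MHC-I. Its cells were injected under the skin of both flanks of male C57BL/6 mice. The chow held 4% curcumin, a polyphenol of the turmeric plant, for the curcumin-treated group, whereas the control group received standard chow of the same batch. Both diets started 14 days before the injection. Total RNA of 7 curcumin-treated tumors and 6 control tumors, taken at day 28, was hybridized to 13 single-color miRNA arrays. The group sizes equal the numbers of mice in the methods, the labels give no age, and they do not tie each tumor to a mouse. The study asked how oral curcumin changes the miRNA expression of engrafting melanoma.

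The let-7 miRNAs are short regulatory RNAs that pair with messenger RNAs mainly through a stretch near their 5′ end, the seed, and thereby lower the output of their targets. The family is known for its rise during differentiation and for targets that drive growth, such as Ras, Myc and Hmga2, and the RNA-binding protein Lin28 blocks the maturation of its hairpins. In melanoma and many other tumors, let-7 members are often described as growth-restraining. A cell makes the members from several genes, some of which lie beside each other or beside genes of the miR-99, miR-100 and miR-125 families. None of these targets was measured on the arrays.

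The mature sequences are shown because the members differ by only a few bases, which is what the array probes must tell apart. The sequences are those of RefSeq for the mouse build GRCm38.p6, where all 9 members were found. They are written 5′ to 3′ with the seed, bases 2 to 8, in capitals.
mmu-let-7a-5p: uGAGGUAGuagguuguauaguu
mmu-let-7b-5p: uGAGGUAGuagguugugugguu
mmu-let-7c-5p: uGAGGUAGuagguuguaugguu
mmu-let-7d-5p: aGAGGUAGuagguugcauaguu
mmu-let-7e-5p: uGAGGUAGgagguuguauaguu
mmu-let-7f-5p: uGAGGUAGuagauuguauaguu
mmu-let-7g-5p: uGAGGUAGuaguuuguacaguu
mmu-let-7i-5p: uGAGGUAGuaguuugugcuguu
mmu-miR-98-5p: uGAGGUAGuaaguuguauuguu

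All 9 members are 22 bases long and share the seed GAGGUAG. Counted from 1 at the 5′ end and with let-7a-5p as the reference, let-7c-5p carries A19G, let-7e-5p carries U9G and let-7f-5p carries G12A, each a single change. The changes are A17G and A19G in let-7b-5p, U1A and U16C in let-7d-5p, G12U and U18C in let-7g-5p, and G11A and A19U in miR-98-5p. let-7i-5p differs most from let-7a-5p, with the 4 changes G12U, A17G, U18C and A19U. How far each probe also binds the other members was not tested.

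The mature arms were placed on GRCm38.p6 as follows. let-7e-5p lies at chr17:17830366-17830387 on the plus strand, inside the gene Spaca6 and within 10 kb of the hairpins of miR-99b and miR-125a. let-7g-5p lies at chr9:106178846-106178867 on the plus strand inside Wdr82, and let-7i-5p at chr10:122985698-122985719 on the minus strand, neither with another miRNA gene within 10 kb. let-7a-5p at chr13:48538239-48538260, let-7f-5p at chr13:48537889-48537910 and let-7d-5p at chr13:48536078-48536099 form a cluster on the minus strand. let-7c-5p at chr15:85706616-85706637 and let-7b-5p at chr15:85707325-85707346 lie together on the plus strand, in the transcript Lncppara. let-7f-5p at chrX:151912353-151912374 and miR-98-5p at chrX:151913229-151913250 share the gene Huwe1 on the plus strand. Further copies of let-7a-5p, at chr9:41536732-41536753 beside miR-100, and of let-7c-5p, at chr16:77599672-77599693 beside miR-99a, also lie on the plus strand. The array cannot tell copies with the same mature sequence apart.

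Each array held 360 spots for the family, 20 for each of 2 probes per member. All 9 members were detected on all 13 arrays, at least 99.2% of their spots lay well above background on every array, and no spot was saturated. The summed signal of all mouse miRNAs ranged from 114095 to 281508 in the curcumin-treated tumors and from 150272 to 244666 in the controls, with 272 to 370 and 313 to 412 miRNAs detected. Curcumin tumor 5 had the lowest sum and the fewest detected miRNAs, and control tumor 5 had the most detected miRNAs. The arrays came from 2 slides that each held both diets, but all controls lay in the first line of a slide and all curcumin-treated tumors in the second line, so that position and diet cannot be told apart. The scanner software gave the members' signals an error of 7.18% to 8.49%. After quantile normalization, the median spread between tumors of a group was an SD of 0.22 log2 units, which corresponds to a factor of 1.17.

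let-7e-5p was the only member that passed the test after quantile normalization, with a level 1.84-fold higher in the curcumin-treated tumors. The log2 signal of let-7e-5p ranged from 8.19 over a median of 9.003 to 9.39 in the 7 curcumin-treated tumors, and from 7.88 over a median of 8.03 to 8.38 in the 6 controls. Thus, 6 of 7 curcumin-treated tumors lay above the highest control, and curcumin tumor 5, at 8.19, lay within the range of the controls. The means were 8.97 ± 0.42 (SD, n = 7) and 8.09 ± 0.19 (SD, n = 6), and the log2 difference was 0.88 (SE 0.18, 95% interval 0.48 to 1.28; limma, adjusted p = 0.00909). A two-sided exact permutation test over the 1716 splits of the tumors gave p = 0.00291. That is 1 of 9 members, against a background of 15.8% of all 1079 miRNAs, of which 8.34% passed as higher and 7.51% as lower. Among the 243 miRNAs detected on all arrays, which include all 9 members, 41.6% passed, 20.2% as higher and 21.4% as lower.

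**Figure D1:**
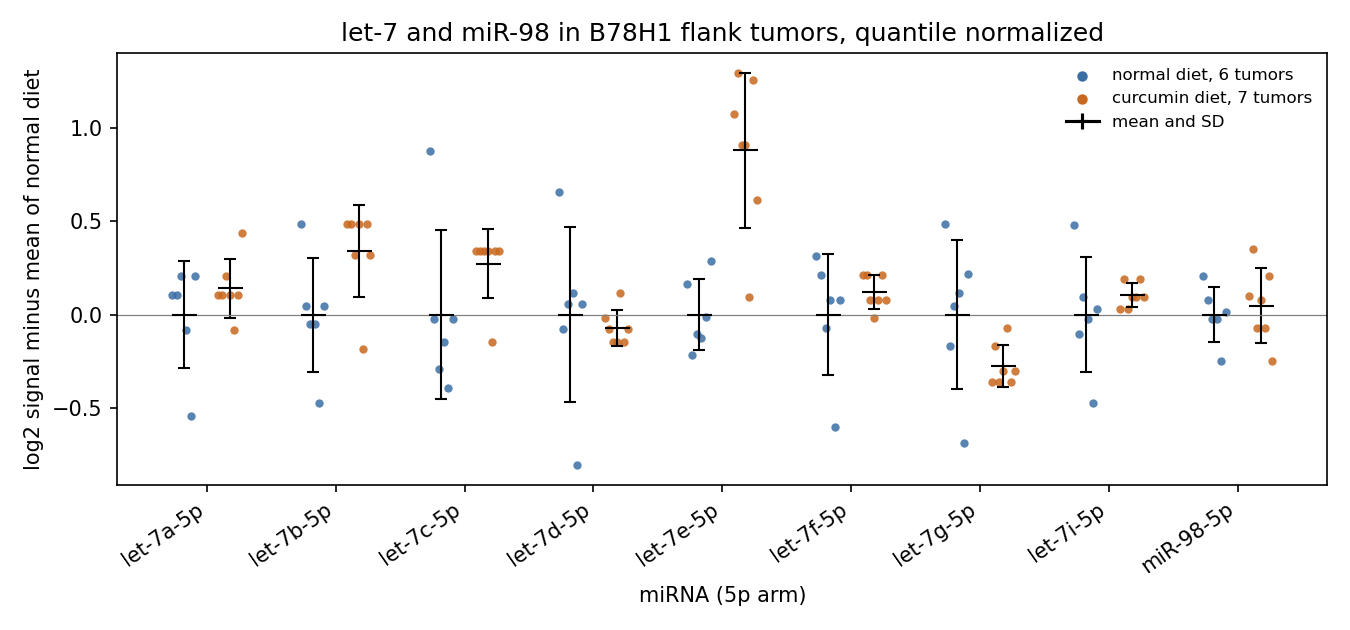
Each point is the quantile-normalized log2 signal of a tumor (y axis, minus the mean of the 6 normal diet tumors of that miRNA) for the 9 members (x axis), with the mean and SD of each diet in black. For let-7e-5p, 6 of 7 curcumin-treated tumors lie above every control, and curcumin tumor 5 lies within the range of the controls. The diets overlap for all 9 members.

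The remaining 8 members did not pass the test on this scale, and their log2 differences ranged from -0.28 to 0.34. let-7b-5p ranged from 11.90 over 12.57 to 12.57 (lowest, median, highest) in the curcumin-treated tumors and from 11.61 over 12.08 to 12.57 in the controls. Of the 7 curcumin-treated tumors, 6 lay above the median of the controls but none lay above the highest control. The log2 difference of let-7b-5p was 0.34 (95% interval 0.01 to 0.67), with an adjusted p of 0.170 by limma and an exact permutation p of 0.0425 before adjustment. let-7g-5p ranged from 9.72 over 9.78 to 10.00 in the curcumin-treated tumors and from 9.39 over 10.16 to 10.56 in the controls. All 7 curcumin-treated tumors lay below the median of the controls, but within their range. The log2 difference of let-7g-5p was -0.28 (95% interval -0.62 to 0.06; limma, adjusted p = 0.333).

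let-7c-5p, the closest relative of let-7b-5p by sequence, had a log2 difference of 0.27 (limma, adjusted p = 0.480), and 6 of its 7 curcumin-treated tumors shared the value 12.77. The cluster mates let-7a-5p, let-7f-5p and let-7d-5p had log2 differences of 0.14, 0.12 and -0.07. let-7i-5p had 0.10 and miR-98-5p had 0.05. The intervals of these 6 members all held 0, the narrowest being that of miR-98-5p, from -0.17 to 0.26. The median over the 9 members was 0.12, beside -0.09 over the 243 miRNAs detected on all arrays. No member differed by more than 1 log2 unit, a size reached by 30.0% of those 243 miRNAs.

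The 2 probes of let-7e-5p were tested one by one in a fit over 2754 probes. The brighter probe differed by 0.83 and the dimmer probe by 0.74 on the log2 scale, and both passed (limma, adjusted p = 0.00729 and 0.0197). Of the 18 probes of the family, 1 other passed, the dimmer probe of let-7f-5p, with a log2 difference of 0.50 (adjusted p = 0.0284), whereas its brighter probe had 0.25 (adjusted p = 0.252). That makes 3 of 18, and the share of all 2754 probes that passed was not computed. In the fit per miRNA, 15.8% of all miRNAs and 41.6% of those detected on all arrays passed. The probes of let-7c-5p had opposite signs, 0.27 and -0.16, and so did those of let-7d-5p, -0.08 and 0.23, and of miR-98-5p, -0.09 and 0.04, none of which passed.

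The size of the change in most members depended on how the arrays were scaled to each other. Quantile normalization gives each miRNA the value of its rank on the array, and the bright members held only a few ranks. let-7c-5p held rank 5 in the median curcumin-treated tumor and took 6 distinct values over the 13 tumors, and let-7a-5p took 5, whereas let-7e-5p, at median ranks of 52 and 74, took 12. For comparison, each array was centred on the median log2 signal of the 243 miRNAs detected on all arrays, a scaling that keeps the spacing of the signals and that was chosen after seeing the data.

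On this centred scale all 9 log2 differences were positive, as they were with the 75th percentile of all miRNAs, and let-7e-5p, let-7i-5p, let-7f-5p and let-7a-5p passed. These are 4 of 9 members, all higher, against 6.77% of all miRNAs and 20.2% of the miRNAs detected on all arrays that passed as higher (10.8% of all miRNAs passed in either direction). let-7i-5p ranged from 10.39 over 10.90 to 11.35 in the curcumin-treated tumors and from 9.67 over 10.18 to 10.46 in the controls. Only 1 value of the curcumin-treated tumors, the lowest, reached into the range of the controls. The centred log2 difference was 0.77 for let-7i-5p (limma, adjusted p = 0.0199), 0.74 for let-7f-5p (0.0282) and 0.67 for let-7a-5p (0.0480), and that of let-7e-5p was 1.098 (0.0120). let-7b-5p and let-7d-5p, both at 0.57, and let-7c-5p, at 0.42, did not pass. The smallest centred differences were those of miR-98-5p, 0.16 (95% interval -0.21 to 0.54), and of let-7g-5p, 0.13 (95% interval -0.22 to 0.48), and the latter had the opposite sign to its value after quantile normalization, as had let-7d-5p. Without scaling and with the 75th percentile of the detected miRNAs, 7 differences were positive, and those of let-7g-5p (-0.06 and -0.05) and miR-98-5p (-0.03 and -0.02) were negative.

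**Figure D2:**
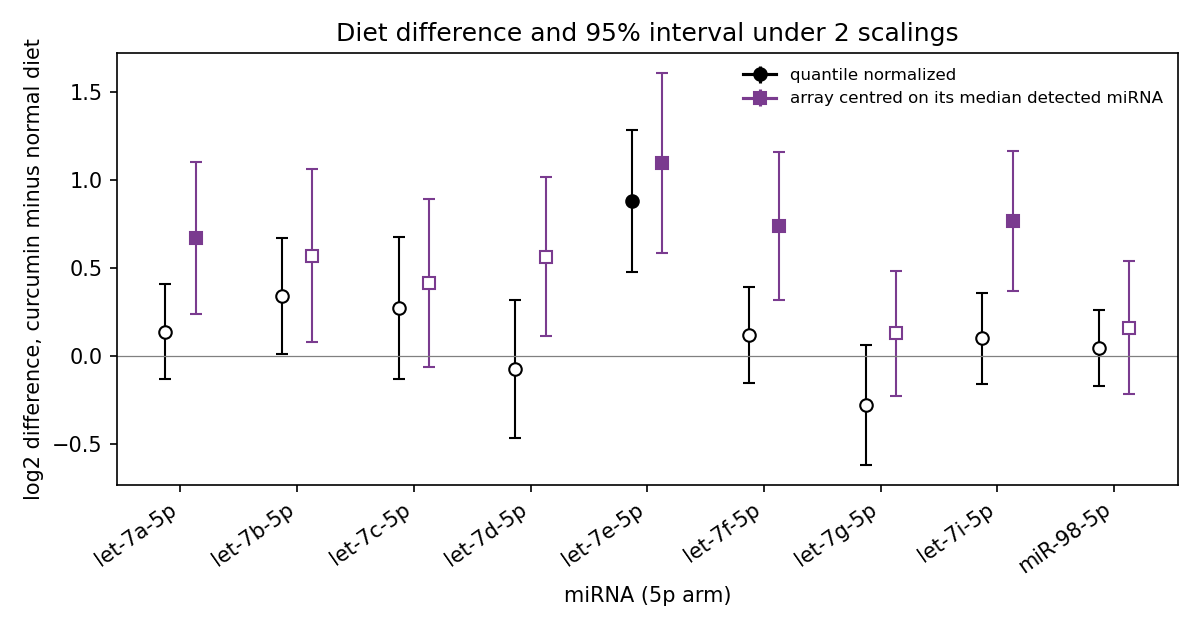
Log2 difference of each member (x axis) between curcumin and normal diet (y axis) with its 95% interval, after quantile normalization (black circles) and after centring each array on its median detected miRNA (purple squares). Filled symbols passed the test (limma, adjusted p below 0.05), which let-7e-5p did on both scales, and let-7a-5p, let-7f-5p and let-7i-5p only on the centred scale.

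With no scaling, the median of the members exceeded the median of the 243 detected miRNAs by 0.64 log2 units, a gap that a single factor per array cannot change, whereas it was 0.22 after quantile normalization and 0.25 after cyclic loess. The number of members that passed was 0 without any scaling, 3 where the 75th percentile of all miRNAs set the scale (let-7e-5p, let-7f-5p and let-7i-5p), 4 with the 75th percentile of the detected miRNAs or their median (let-7a-5p in addition), and 1 after cyclic loess (let-7e-5p). The backgrounds of these counts were 4.54% without scaling, 9.73% and 12.8% for the 75th percentiles and 11.8% for cyclic loess. let-7g-5p and miR-98-5p passed under none of them.

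The members were next compared with each other within each array. The log2 ratio of 2 members before any scaling between arrays is free of an array's overall brightness, since any single factor cancels. Of the 36 ratios, 28 differed between the diets (two-sided exact permutation test, Benjamini-Hochberg adjusted over the 36, threshold 0.05), and the same 28 had an unadjusted p below 0.05. All pairs among the 243 miRNAs detected on all arrays gave a background of 61.0% below an unadjusted p of 0.05, with a median absolute difference of 0.88. Among the 36 member ratios the median absolute difference was 0.34, and the largest was 0.97. Only the ratios of let-7e-5p to let-7g-5p and to miR-98-5p exceeded the median of all pairs.

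let-7e-5p rose relative to each of the other 8 members, by 0.33 against let-7i-5p up to 0.97 against let-7g-5p. Its log2 ratio to let-7g-5p ranged from -1.75 over -0.76 to -0.53 in the curcumin-treated tumors and from -2.03 over -1.94 to -1.54 in the controls. The diets overlapped only through the lowest curcumin-treated tumor. The difference of 0.97 (95% interval 0.53 to 1.40) had an exact permutation p of 0.00291 and an adjusted p of 0.00874. Against let-7a-5p, from which let-7e-5p differs by the single change U9G, the ratio of let-7a-5p over let-7e-5p fell by 0.43 (exact permutation p = 0.00932, adjusted p = 0.0186).

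At the other end, let-7g-5p and miR-98-5p fell relative to each of the other 7 members before scaling, although let-7d-5p over miR-98-5p turned from 0.40 to -0.12 after quantile normalization. The ratio of let-7g-5p over let-7i-5p, which differ at 2 bases, ranged from -1.29 over -1.11 to -0.58 in the curcumin-treated tumors and from -0.55 over -0.43 to -0.33 in the controls. The diets did not overlap. The log2 difference was -0.64 (95% interval -0.85 to -0.43; exact permutation p = 0.00117, adjusted p = 0.00699). The groups were also without overlap for let-7a-5p over let-7g-5p, let-7f-5p over let-7g-5p and let-7b-5p over let-7c-5p, which makes 4 of 36 ratios, against 15.4% of all pairs of detected miRNAs. The ratio of let-7g-5p over miR-98-5p did not pass, at -0.03 (95% interval -0.22 to 0.16).

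let-7c-5p passed against all 8 others, lower relative to let-7a-5p, let-7b-5p, let-7d-5p, let-7e-5p, let-7f-5p and let-7i-5p and higher relative to let-7g-5p and miR-98-5p. After quantile normalization the sign turned for 4 of these, and let-7c-5p lay higher relative to let-7a-5p, let-7d-5p, let-7f-5p and let-7i-5p, without passing (0.35 for let-7c-5p over let-7d-5p, against -0.15 before scaling). let-7b-5p over let-7c-5p, which lie together on chromosome 15, ranged from -0.25 over -0.16 to -0.05 in the curcumin-treated tumors and from -0.32 over -0.30 to -0.27 in the controls. Every curcumin-treated tumor exceeded every control, although the difference was only 0.16 (95% interval 0.09 to 0.22; exact permutation p = 0.00117, adjusted p = 0.00699). In the chromosome 13 cluster, let-7a-5p over let-7f-5p did not pass (-0.07, 95% interval -0.14 to 0.01), whereas let-7d-5p over let-7f-5p passed at -0.17 (exact permutation p = 0.0163, adjusted p = 0.0245). let-7f-5p and miR-98-5p, neighbours in Huwe1, differed by 0.58 (exact permutation p = 0.00175, adjusted p = 0.00699), but let-7f-5p has a further copy on chromosome 13. The 5 ratios of members whose hairpins lie within 10 kb had a median absolute difference of 0.16 (0.07 to 0.58), and the other 31 had 0.36 (0.005 to 0.97). Of the 5, 4 passed, and of the 31, 24 passed.

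**Figure D3:**
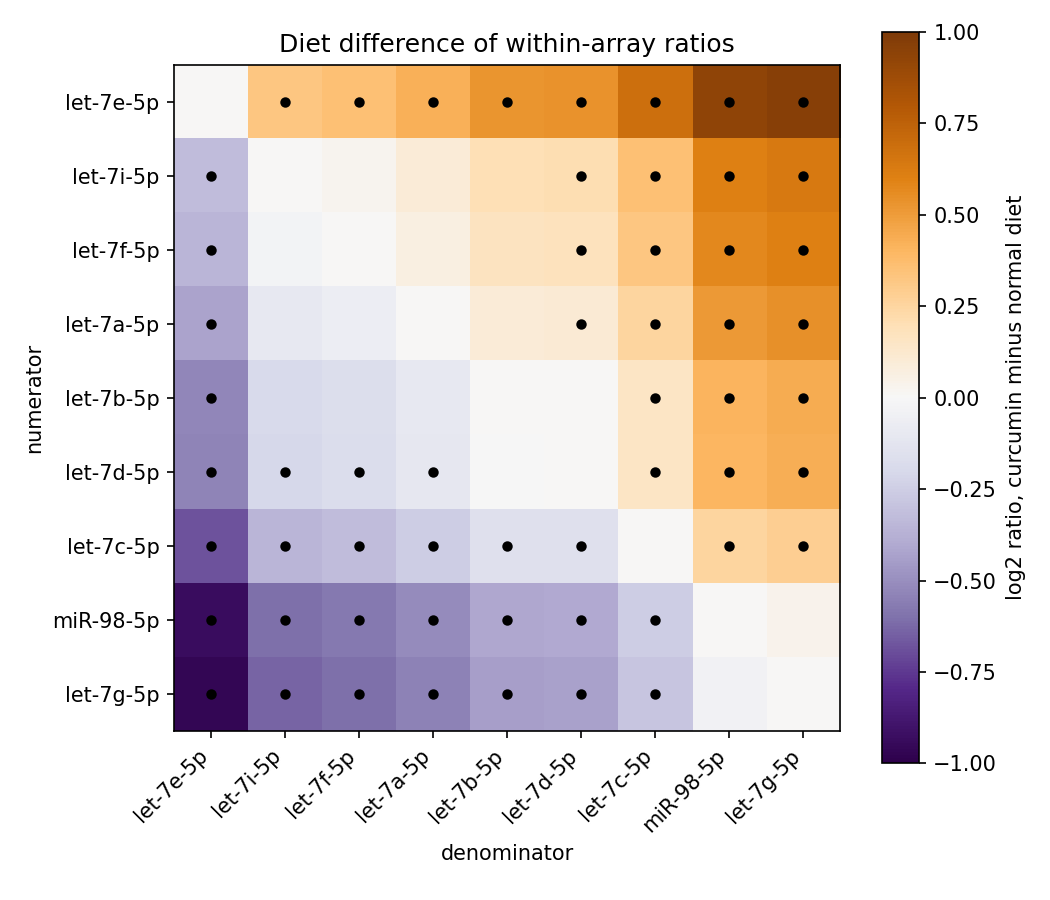
Diet difference of the log2 ratio of every pair of members before scaling between arrays (color, row member over column member, curcumin minus normal diet), with members ordered by their centred difference. A dot marks the 28 of 36 ratios that passed the exact permutation test after adjustment, including the whole row of let-7e-5p, and let-7g-5p and miR-98-5p stand at the low end with no dot between them.

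Before scaling or with a single factor per array, the order of the diet differences was let-7e-5p, then let-7i-5p, let-7f-5p and let-7a-5p, then let-7b-5p and let-7d-5p, then let-7c-5p, and last miR-98-5p and let-7g-5p. After quantile normalization let-7e-5p was also first and let-7g-5p last, but let-7b-5p and let-7c-5p followed let-7e-5p, and let-7d-5p lay below miR-98-5p. In the unscaled ratios, neighbours within the first trio after let-7e-5p, within let-7b-5p and let-7d-5p, and within the last 2 did not differ beyond their spread, and neither did let-7b-5p from any of the trio. All 28 ratios that passed had the same sign on both slides and in each of the 4 combinations of the members' probes. They were chosen on these same arrays and probes, so that the agreement is no separate support. Several of the ratios that did not pass kept their sign as well. As a yardstick, the ratio of the 2 probes of the same member differed between the diets by a median of 0.07 and by at most 0.13, and passed for 3 of 9 members (let-7c-5p, let-7e-5p and let-7i-5p). Of the member ratios, 29 exceeded that highest value, and 27 of these passed. The 2 probes of a member read the same miRNA, so that this yardstick cannot show how far ratios of different miRNAs differ. All pairs of detected miRNAs had a median absolute difference of 0.88, and their share above 0.13 was not computed. Nor was the share of other miRNAs whose probe ratios passed. After quantile normalization 14 of the 36 ratios passed, 8 with let-7e-5p and 6 others with let-7g-5p, and all 14 were among the 28, with the same sign. Of the 28 unscaled ratios, however, 5 had the opposite sign after quantile normalization, where none of the 5 passed. They were let-7c-5p with let-7a-5p, let-7d-5p, let-7f-5p and let-7i-5p, and let-7d-5p with miR-98-5p. There 18 ratios had an unadjusted p below 0.05, against 60.5% of all pairs of detected miRNAs.

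The family was then set beside the miRNAs made from neighbouring hairpins, which belong to other seed families. Of the 5 listed, 4 rose and 1 did not pass, beside 8.34% of all miRNAs and 20.2% of those detected on all arrays that passed as higher. miR-99b-5p, from the hairpin next to let-7e, ranged from 6.50 over 7.16 to 7.45 in the curcumin-treated tumors and from 5.80 over 6.24 to 6.50 in the controls, as quantile-normalized log2 signals. Its lowest curcumin-treated value equalled the highest control. The log2 difference was 0.86 (SE 0.16; limma, adjusted p = 0.00538). miR-125a-5p, the remaining miRNA of the let-7e cluster, ranged from 7.42 over 7.88 to 8.19 and from 7.01 over 7.15 to 7.21. Its groups did not overlap, against 11.9% of the 243 detected miRNAs (8.23% with the curcumin-treated tumors higher), and the log2 difference was 0.68 (SE 0.12; limma, adjusted p = 0.00407).

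Before scaling, the log2 ratio of let-7e-5p over miR-99b-5p differed between the diets by 0.22 (exact permutation p = 0.0367, adjusted p = 0.0734 over 4 such ratios) and that over miR-125a-5p by 0.17 (exact permutation p = 0.0554, adjusted p = 0.0738). Neither passed after adjustment. miR-100-5p, beside the second copy of let-7a, rose by 0.98 (limma, adjusted p = 0.0117), and let-7a-5p over miR-100-5p fell by 0.50 (exact permutation p = 0.00699, adjusted p = 0.0280). miR-125b-5p, whose genes belong to the let-7a and let-7c clusters, ranged from 10.19 over 11.38 to 11.61 in the curcumin-treated tumors and from 8.63 over 9.51 to 9.66 in the controls. The groups did not overlap and the log2 difference was 1.90 (SE 0.26; limma, adjusted p = 0.00179). miR-99a-5p, beside the second copy of let-7c, had a log2 difference of -0.18 (adjusted p = 1), with let-7c-5p over miR-99a-5p at 0.45 (95% interval -0.17 to 1.07; exact permutation p = 0.136). On the centred scale the same 4 partners passed.

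**Figure D4:**
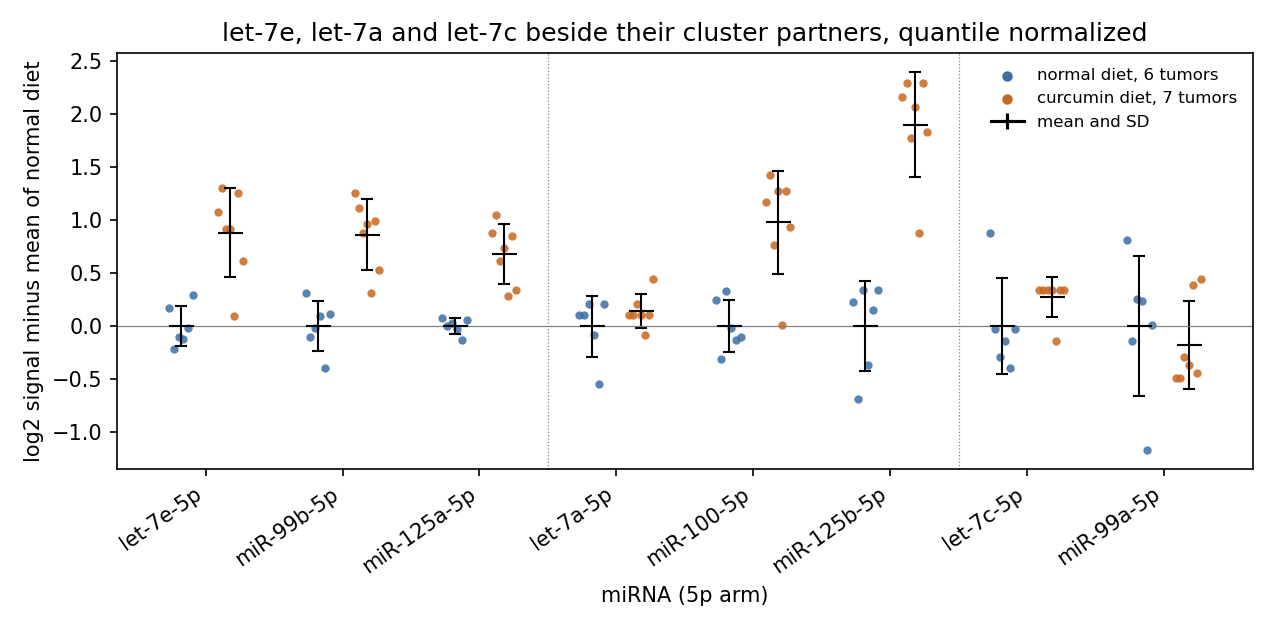
Quantile-normalized log2 signal of each tumor (y axis, minus the mean of the 6 normal diet tumors of that miRNA) for let-7e-5p, let-7a-5p and let-7c-5p and the miRNAs of neighbouring hairpins (x axis, dotted lines between clusters), with mean and SD in black. The differences were 0.88, 0.86 and 0.68 in the let-7e cluster, whereas let-7a-5p differed by 0.14 beside miR-100-5p at 0.98 and miR-125b-5p at 1.90.

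The opposite arms of the family's hairpins, which are usually degraded, were close to or below detection. Of 11 such 3p arms on the array, 1 was detected on all arrays and 7 on none. let-7a-1-3p, the detected one, had a log2 difference of -0.54 (limma, adjusted p = 0.474). let-7g-3p and let-7i-3p passed the test in opposite directions, but neither was detected on any array, and no fold is given. Among the miRNAs with a related seed, miR-1961, which shares all bases of the seed, was detected on no array, and miR-202-3p, which differs in the last seed base, had a log2 difference of -0.11 (adjusted p = 1).

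Markers of other cell types differed between the diets as well. In the counts below, higher and lower mean that a miRNA passed the limma test. Among all miRNAs 8.34% passed as higher and 7.51% as lower, and among those detected on all arrays 20.2% and 21.4%. All 6 hematopoietic miRNAs were higher in the curcumin-treated tumors, with summed normalized signals of 623 to 1873 against 319 to 539.5, and their first marker miR-142-3p differed by 2.31 log2 units. Of the 5 fibroblast miRNAs 2 were higher, with sums of 498 to 1094 against 161 to 392 and a difference of 2.55 for miR-199a-5p. In the same list miR-143-3p differed by 0.20 and miR-145-5p by -0.05. The groups of miR-214-3p did not overlap, with the curcumin-treated tumors higher, but it did not pass (limma, adjusted p = 0.0501). Of the 6 epithelial miRNAs 1, miR-205-5p, was higher, with sums of 218 to 1739 against 3.11 to 165, while 4 of the list were detected on no array. Among 3 skeletal muscle miRNAs 1 was higher, and none of the 2 endothelial or 2 erythroid miRNAs passed. Of the 2 melanocytic miRNAs, miR-211-5p was lower by 4.76 log2 units, being detected in 4 of 7 curcumin-treated tumors and all 6 controls, and the sums ranged from 4.19 to 624 against 308 to 847. The part of these cell types in the differences of the family was not tested, and in bulk tissue fewer cells of a type and less RNA per cell cannot be told apart.

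Within each slide, the diet difference of let-7e-5p was 1.12 on slide 1, with 3 curcumin-treated tumors and 2 controls, and 0.71 on slide 2, with 4 of each. Neither passed on its own (limma, adjusted p = 0.0938 and 0.277), where 3.15% and 0.278% of all miRNAs passed. With the slide as a block the log2 difference was 0.86 (adjusted p = 0.0133). The slide by diet interaction passed for no member and for 0 of 1079 miRNAs.

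Across the tumors of a diet most members varied together after quantile normalization, let-7e-5p with the lowest correlation. Over the pairs of members, r ranged from -0.03 to 0.95. In control tumor 5 all 9 members lay below their control means, by 0.47 log2 units on average, whereas all 9 lay above them in control tumor 1, by 0.42 on average. Among the controls, tumor 5 had the most detected miRNAs (412) and tumor 1 the fewest (313). Over the 13 tumors, deviations from the diet means correlated with the mean of the other members with r = 0.90 for let-7i-5p and 0.33 for let-7e-5p. With the number of miRNAs detected on the array, r was -0.79 for let-7g-5p, -0.74 for let-7d-5p and -0.61 for let-7i-5p, but 0.43 for let-7e-5p. The part of the arrays and their normalization in the shared pattern was not tested. The miRNAs outside the family with the most similar pattern, out of 234 detected on all arrays, were miR-196b-5p (r = 0.85), miR-16-5p, miR-28-5p and miR-33-5p (each 0.83), and miR-15b-5p and miR-487b-3p (each 0.80), where the median over the 234 was 0.26. These 13 points share arrays and normalization, and the values are given as a description.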

How the data were processed

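Arrays of 13 tumors were analysed. The authors' scanner software (Feature Extraction 10.10.1.1) subtracted the background and gave an intensity per probe, deposited without scaling between arrays. A second deposited table holds the authors' quantile-normalized log2 values, which differed from those used here by at most 0.04 for the members. No aligner was involved.

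Probe intensities were summed per miRNA, quantile normalized over 13 arrays (limma 3.58.1, R 4.3.3), set to the smallest positive value (-7.03 as log2) where at or below 0, which held for 51.5% of values, and converted to log2. Diets were compared with limma over 1079 miRNAs with Benjamini-Hochberg adjustment (threshold 0.05), and single members and ratios with two-sided exact permutation tests. The fit was tested on simulated data. The methods' t-test and other backgrounds, scalings, floors, filters, blocks and subsets were alternatives. The normexp alternative used median spot signals. Named miRNAs were the 9 members, listed relatives detected on every array of a diet, the first marker of each cell type, and the 6 most similar detected non-members. Outside this rule, let-7g-3p, let-7i-3p and miR-1961 were named after their values were seen. Members and lists were chosen with earlier results of these data known. Array numbers, not counts, limit the precision, and p-values set a diet difference against the spread between these tumors. They take the tumors as independent, although the labels do not tie each tumor to a mouse.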

Additional observations from a re-analysis of the deposited data

Results flagged for a closer look

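Of the 18 sets of values tested, a member in a diet, 3 held a tumor that stood apart from the others by Dixon's test. The test's chance rate of about 1 in 20 holds for values without ties, and many values here were tied, so that it gives no measure for these sets. let-7b-5p was at 11.90 in curcumin tumor 5, below the next curcumin-treated tumor at 12.40. let-7c-5p was at 12.28 in the same tumor, while the other 6 shared 12.77. let-7c-5p was also at 13.30 in control tumor 1, above the next control at 12.40. These are quantile-normalized log2 values, of which the bright members hold few distinct ones.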

How the results depend on the processing

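let-7e-5p was higher in the curcumin-treated tumors in each of 16 other settings (log2 difference 0.71 to 1.13) and passed in 13. It did not pass without normalization between arrays (0.90, adjusted p = 0.232, with a range of 0.00268 to 0.277 over the 16) or on a single slide. The number of members that passed was 0 without normalization and on slide 1 or slide 2 by itself, 3 with the 75th percentile of all miRNAs, and 4 with that of the detected miRNAs or with centring. The median of the members was 0.38, 0.60, 0.39 and 0.57 under no normalization, the 75th percentile of all miRNAs, that of the detected ones and centring, and -0.08 on slide 1. The number of pair ratios that passed was 28 under each of these 4 scalings. These are the same ratios, since a single factor per array cancels, and they do not count as repeated support. On slide 2, with quantile-normalized values, 0 of 36 passed. With 4 against 4 tumors few splits exist, so that a pass after adjustment over the 36 was hard to reach. The pair test was not run on slide 1 by itself, since 3 against 2 tumors allow no p below 0.05, and it is unchanged by settings that alter only the test or the set of miRNAs tested. Centring and cyclic loess were chosen after seeing the data.

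Leaving out each tumor in turn gave 1 to 2 members that passed, a median of 0.01 to 0.18, 11 to 20 quantile-normalized ratios and 23 to 30 unscaled ratios. let-7e-5p passed in all 13 of these fits (0.80 to 1.01). The second member was let-7b-5p without curcumin tumor 5 (0.43, adjusted p = 0.0411, up to 0.365 over the 13 fits), let-7c-5p without control tumor 1 (0.45, adjusted p = 0.0172, up to 0.903) and let-7g-5p without control tumor 5 (-0.43, adjusted p = 0.0226, up to 0.592). In the 13 fits, 102 to 184 of all 1079 miRNAs passed, beside 171 with all tumors. The number was 184 without curcumin tumor 5, 136 without control tumor 1 and 135 without control tumor 5. With the replicate number as a block, 1 member passed and the members' median was 0.10, while 67 instead of 171 of all miRNAs passed. The deviations of same-numbered tumors correlated between -0.30 and 0.20, and the labels do not say whether the numbers pair the tumors. Over all miRNAs, 49 passed without normalization, 105 with the 75th percentile of all miRNAs and 3 on slide 2.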
